A study of Homo sapiens with 6 samples.

Results

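Islet transcription factors that hold the β cell in its differentiated state, outside the MAF and FOXA families, were examined in RNA-seq of EndoC-βH1 cells. The 9 genes were listed by name, namely PDX1, NKX6-1, NKX2-2, NEUROD1, PAX6, RFX6, ISL1, INSM1 and HNF4A. All 9 were found by their Ensembl identifiers among the 60671 identifiers in the count files, and all 9 passed the filter on low counts. EndoC-βH1 is a human β cell line that was made from fetal pancreas by expression of SV40 large T antigen and telomerase. It is a single line, so differences between donors are not sampled. Beyond these immortalizing genes, the labels give the genotype of all samples as WT, and both groups were grown in the same medium before the experiment. In the vehicle group, 3 samples received DMSO. In the treated group, 3 samples received 1 µM AZD7762, an inhibitor of the checkpoint kinases CHEK1 and CHEK2. Both groups spent 1 h in 0.5 mM glucose, followed by a glucose stimulation of 1 h, with the compound or vehicle present throughout. The stimulation used 0.5 mM or 20 mM glucose, and the concentration is not given for each library. The study's methods speak of independent replicates for in vitro work in general, but the labels do not say whether these samples came from separate cultures. If they did not, the p-values below measure only the spread between these samples, which may be technical.

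These factors form the core of the regulatory network of the β cell. NEUROG3 starts endocrine differentiation in the embryonic pancreas and switches on NEUROD1, INSM1, NKX2-2 and RFX6, which then act with PDX1, NKX6-1, ISL1 and PAX6 on genes for insulin, glucose sensing and granule secretion. Many of them bind the enhancers of each other's genes, and loss of PDX1, NKX6-1, NKX2-2, NEUROD1 or PAX6 from adult mouse β cells lowers insulin gene expression or lets genes of other islet cells appear. Inherited mutations of HNF4A, PDX1 and NEUROD1 cause forms of maturity-onset diabetes of the young, and biallelic mutations of RFX6 cause neonatal diabetes with malformation of the gut.

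Promoter sequences were taken from RefSeq (assembly GRCh38.p14), which gave 16 entries for 6 of the 9 genes: 1 each for NKX6-1, NEUROD1 and ISL1, 2 each for NKX2-2 and HNF4A, and 9 for PAX6. PDX1, RFX6 and INSM1 had no entry. The 250 bases before the annotated start are shown for the 3 genes with a single entry, since 1 of them was lower, 1 higher and 1 close to level with AZD7762 (values below). Capitals mark TGACG or its reverse complement CGTCA, the core of the cyclic AMP response element bound by CREB family factors. The motif to mark was chosen after the search.
NEUROD1, chr2:181680518-181680767, minus strand: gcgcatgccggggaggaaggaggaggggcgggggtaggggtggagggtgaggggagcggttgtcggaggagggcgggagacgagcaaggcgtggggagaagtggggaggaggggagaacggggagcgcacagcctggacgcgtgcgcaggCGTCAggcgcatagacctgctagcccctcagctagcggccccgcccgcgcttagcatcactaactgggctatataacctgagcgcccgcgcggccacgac
NKX6-1, chr4:84499293-84499542, minus strand: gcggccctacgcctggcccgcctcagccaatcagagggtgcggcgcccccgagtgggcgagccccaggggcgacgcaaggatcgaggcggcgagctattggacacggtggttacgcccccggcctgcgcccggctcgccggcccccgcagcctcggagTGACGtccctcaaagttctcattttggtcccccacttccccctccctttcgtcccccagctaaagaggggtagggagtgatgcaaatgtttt
ISL1, chr5:51383198-51383447, plus strand: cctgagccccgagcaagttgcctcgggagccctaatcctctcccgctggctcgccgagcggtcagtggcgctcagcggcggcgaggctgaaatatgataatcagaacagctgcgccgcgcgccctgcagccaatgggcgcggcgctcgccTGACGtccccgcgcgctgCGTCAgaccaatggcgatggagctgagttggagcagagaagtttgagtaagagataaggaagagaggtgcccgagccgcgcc
The core began 100 bases before the NEUROD1 start and 92 bases before that of NKX6-1. ISL1 held it at 100 and at 82 bases. On either strand it occurred in 5 of the 16 entries, which were these 3, 1 of NKX2-2 and 1 of PAX6, and in 21.2% of the 35116 promoters of the same length. The E-box CANNTG, the motif that NEUROD1 binds with its partners, occurred in 11 of the 16 entries and in 61.8% of all promoters. It was not in the NEUROD1 window, and it began 10 bases before the start of NKX6-1 and 144 before that of ISL1. TAATTA, a core bound by many homeodomains, was found in 1 of the 16 entries (HNF4A) and in 4.35% of all promoters. TATAAA was found in 1 entry (NKX2-2) and in 10.7% of promoters, and CCAAT in 7 entries and in 32% of promoters. These are matches of letters and not shown binding sites.

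Estimated differences of the 9 transcripts between the groups were at most 14.9%. None of the 9 genes passed the test over all genes (edgeR's quasi-likelihood test, adjusted p under 0.05), which called 125 of 17649 genes, or 0.708%. The 9 log2 fold changes (AZD7762 over DMSO) lay between -0.23 and 0.15, with a median of -0.021 beside 0.0076 over all genes tested. At an unadjusted p under 0.05 there were 4 of the 9, a level that 9.68% of all genes reached. NEUROD1, RFX6 and INSM1 were lower by 14.0% to 14.9%, and NKX6-1 was higher by 11.3%. In 5 of the 9 the samples of the 2 groups did not overlap, compared with 15.0% of all genes. NKX6-1 and PDX1 were above (2 of 9, beside 6.79% of all genes) and NEUROD1, RFX6 and INSM1 below (3 of 9, beside 8.25%). The deviations of same-numbered samples from their group means correlated at 0.134, 0.256 and 0.376. DMSO replicate 1 correlated more with AZD7762 replicate 2 (0.334), and the labels name no shared batch. Pairing by number was thus inferred from these same data. With the replicate number as a term, the test called NEUROD1 and RFX6 lower, 2 of 9 beside 2.14% of all genes. Other tests called NEUROD1 alone, against 0.992% of all genes by DESeq2, 1.51% by edgeR's likelihood ratio test, 1.44% by its exact test and 0.950% with no filter on low counts. With trends in GC content and length taken out of each library, 0 of 9 were called beside 1.38% of all genes. With those trends and the block together, NEUROD1, RFX6 and INSM1 were called, 3 of 9 beside 2.75%. Counting error was small for all 9, since the lowest count in any library was 1541, with a counting error of 2.55%. The highest was 42144.

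**Figure D1:**
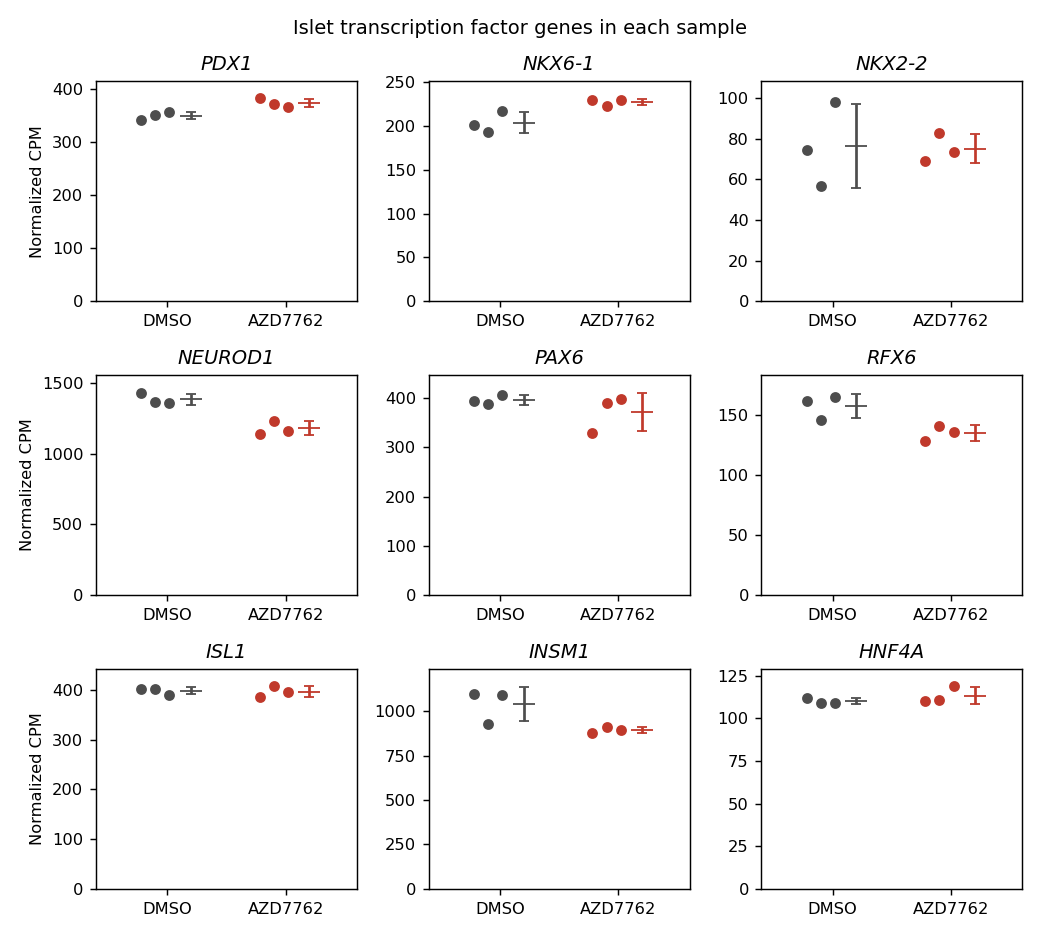
Normalized CPM (CPM on TMM-scaled library totals) of the 9 factors in each sample, with replicates 1, 2 and 3 from left to right and bars for the mean ± SD of 3 samples per group. Each panel has its own axis from 0. The samples are apart for PDX1, NKX6-1, NEUROD1, RFX6 and INSM1 and overlap for the other 4, with NKX2-2 the most scattered in DMSO.

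NEUROD1, a basic helix-loop-helix (bHLH) factor that activates the insulin gene through E-boxes, had the smallest p of the 9. NEUROD1 (ENSG00000162992, GRCh37 chr2:182533022-182545554, minus strand) was at 1427, 1366 and 1360 CPM in DMSO replicates 1, 2 and 3 and at 1141, 1234 and 1161 CPM with AZD7762. All 3 treated samples were below all 3 vehicle samples, and the highest treated sample was replicate 2. The means were 1384 ± 36.7 and 1179 ± 49.2 CPM (SD, n = 3 each), a decrease of 14.9% with a 95% interval of 6.38% to 22.6%. The log2 fold change was -0.23 (SE 0.0631, adjusted p = 0.182 by edgeR's quasi-likelihood test). With the replicate number as a block the adjusted p was 0.0144. DESeq2 gave an adjusted p of 0.03, and edgeR's likelihood ratio and exact tests gave 0.0342 and 0.0358. The quasi-likelihood test gave 0.0337 with no filter on low counts. It gave 0.104 with GC and length trends taken out (log2 fold change -0.19) and 0.0635 to 0.182 with other scaling. The call for NEUROD1 thus depended on the test, the filter and the block. Without any single sample the log2 fold change stayed between -0.27 and -0.21, and the adjusted p lay between 0.0888 and 0.518. Exons of CERKL, a ceramide kinase-like gene on the same strand, cover 2.88% of the annotated NEUROD1 exons. CERKL itself was at 27.8 ± 1.14 CPM with DMSO and 27.5 ± 1.89 with AZD7762.

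RFX6, a winged-helix factor needed for islet formation and for calcium channel expression in β cells, was the next by p. RFX6 (ENSG00000185002, GRCh37 chr6:117198375-117253324, plus strand) was at 162, 146 and 165 CPM with DMSO and at 128, 141 and 136 CPM with AZD7762. The groups did not overlap, and the closest samples were those of replicate 2, 146 and 141 CPM. The decrease was 14.4% (95% interval 5.48% to 22.4%), a log2 fold change of -0.22 (SE 0.0656, edgeR adjusted p = 0.234). With the replicate block the adjusted p was 0.048, and no gene of the 9 other than NEUROD1 and RFX6 passed in that fit.

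INSM1, a zinc finger repressor of the neuroendocrine lineage, was at 1097, 927 and 1090 CPM with DMSO and at 876, 910 and 892 CPM with AZD7762. The groups did not overlap, but DMSO replicate 2 was close to the treated samples. INSM1 (ENSG00000173404, GRCh37 chr20:20348748-20351593, plus strand) averaged 1038 ± 96.1 CPM in vehicle and 893 ± 17.3 in treated samples (SD, n = 3 each), so most of the spread was in the vehicle group. The log2 fold change was -0.22 (SE 0.0733, edgeR adjusted p = 0.334), a decrease of 14.0% with a 95% interval of 3.92% to 23.0%. The adjusted p was 0.0588 with the replicate block. INSM1 has the most GC-rich longest annotated transcript of the 9, at 63.2%. When trends with GC content and length were taken out of each library, its log2 fold change was -0.30, with adjusted p = 0.0657 and, together with the replicate block, 0.0124.

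NKX6-1 and PDX1 are homeodomain factors that mark mature β cells, and both were higher with AZD7762 in every sample. NKX6-1 represses genes of α cells. NKX6-1 (ENSG00000163623, GRCh37 chr4:85413138-85420445, minus strand) was at 201, 193 and 217 CPM with DMSO and at 229, 223 and 229 CPM with AZD7762. Its groups did not overlap, and the treated samples were the less scattered. The increase was 11.3% (95% interval 1.67% to 21.9%), a log2 fold change of 0.15 (SE 0.0602, edgeR adjusted p = 0.423, or 0.0854 with the replicate block). PDX1, which directs pancreas formation and later activates the insulin gene, was at 343, 352 and 357 CPM with DMSO and at 383, 373 and 367 CPM with AZD7762. The gap between the groups of PDX1 (ENSG00000139515, GRCh37 chr13:28494137-28500450, plus strand) was the difference between 357 and 367 CPM. Its log2 fold change of 0.094 (SE 0.0554) had an edgeR adjusted p of 0.632, and its 95% interval ran from -0.026 to 0.21. Once the GC and length trends were taken out, the log2 fold changes were 0.093 for NKX6-1 and 0.021 for PDX1. The longest annotated transcripts of these genes have a GC content of 59.1% and 59.0%.

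The other 4 factors overlapped between the groups. ISL1, a LIM homeodomain factor of all islet endocrine cells, was the steadiest, at 403, 403 and 390 CPM with DMSO and 386, 409 and 396 CPM with AZD7762. For ISL1 (ENSG00000016082, GRCh37 chr5:50679282-50690564, plus strand) the log2 fold change was -0.0059, and the 95% interval of the difference was -8.5% to 8.39%. HNF4A, a nuclear receptor that in β cells acts on genes of glucose metabolism, was at 112, 109 and 109 CPM with DMSO and 110, 111 and 119 CPM with AZD7762. For HNF4A (ENSG00000101076, GRCh37 chr20:42984339-43061485, plus strand) the log2 fold change was 0.044 (SE 0.0569), with an interval of -5.36% to 12.3%. A microRNA gene, MIR3646, lies in 0.826% of its exons and had at most 1 count in a library. These intervals bound the change of ISL1 and HNF4A and do not show that it was absent.

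PAX6, a paired-box factor needed for the hormone genes of α and β cells, was at 394, 387 and 407 CPM with DMSO. With AZD7762 it was at 328, 389 and 398 CPM. Replicate 1 of AZD7762 was low, and the other treated samples lay within the vehicle range. For PAX6 (ENSG00000007372, GRCh37 chr11:31806327-31839509, minus strand) the log2 fold change was -0.092 (SE 0.0739, edgeR adjusted p = 0.744) with all samples and -0.018 without AZD7762 replicate 1. The opposite-strand gene ELP4, an Elongator subunit, covers 25.4% of the annotated exon bases of PAX6, and PAUPAR, an antisense RNA, covers 0.925%. ENSG00000285283, a gene without a symbol on that strand, covers 0.518% and was listed at 0 counts in every library. Since it is not known whether strand was used in counting, PAX6 reads there are uncertain. ELP4 was at 46 ± 2.33 CPM with DMSO and 47.7 ± 2.58 with AZD7762 and PAUPAR at 9.06 ± 0.492 and 8.58 ± 0.352, all far below PAX6.

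NKX2-2, a homeodomain factor that keeps β cells from taking on other islet fates, varied more between replicates than between groups. It was at 74.4, 56.7 and 98.2 CPM with DMSO and at 69.1, 82.8 and 73.6 CPM with AZD7762. The lowest and the highest of the 6 samples were both vehicle samples. For NKX2-2 (ENSG00000125820, GRCh37 chr20:21491655-21494702, minus strand) the biological coefficient of variation was 12.8%, the largest of the 9 and above the 7.15% common to all genes. The log2 fold change was -0.021 (SE 0.148, edgeR adjusted p = 0.981), with an interval of -21.1% to 23.1%, and its sign depended on which sample was left out (-0.20 to 0.20). The antisense gene NKX2-2-AS1 overlaps 30.1% of its exons and was listed at 0 counts in all 6 libraries. Without the strand setting, it is not known whether antisense reads there were counted for NKX2-2 or for neither gene.

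**Figure D2:**
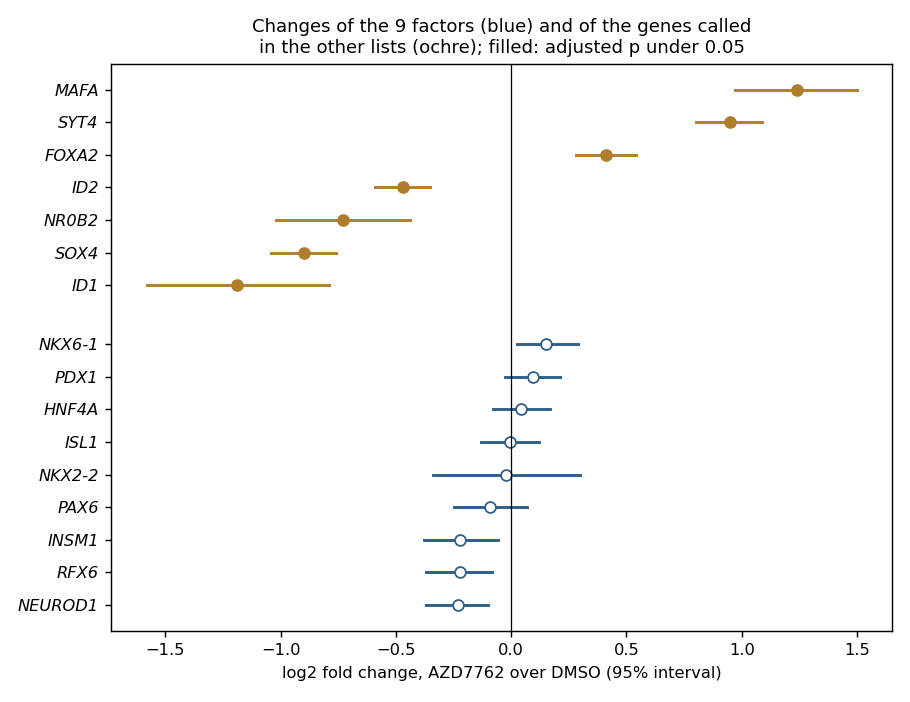
log2 fold changes with 95% intervals (per gene, not adjusted for the number of genes) for the 9 factors in blue and for the genes called in the lists of other islet factors, cofactors, bHLH partners and β cell effector genes in ochre. Filled points passed an adjusted p under 0.05. The 9 factors lie between -0.23 and 0.15, and the called genes between -1.19 and 1.24.

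Count ratios within a library do not depend on how libraries are scaled. Of the 36 pairs of the 9 factors, 15 had ratios that did not overlap between the groups (41.7%), compared with 15.3% of all pairs of the 17648 tested genes with a count in every sample. Pairs share genes and are not independent. The examples below are of factors already seen to be lower or higher and are a description. Within a library, the count ratio of NEUROD1 to PDX1 was 4.16, 3.88 and 3.81 with DMSO and 2.98, 3.31 and 3.17 with AZD7762. The ratio of NEUROD1 to NKX6-1 was 7.08, 7.07 and 6.26 with DMSO and 4.98, 5.54 and 5.06 with AZD7762, again with no overlap. RFX6 to NKX6-1 was 0.804, 0.755 and 0.76 with DMSO and 0.559, 0.632 and 0.593 with AZD7762. Ratios among the 3 lower factors overlapped between the groups. INSM1 to RFX6 was 6.77, 6.35 and 6.6 with DMSO and 6.84, 6.47 and 6.55 with AZD7762, and RFX6 to NEUROD1 was 0.113, 0.107 and 0.121 with DMSO and 0.112, 0.114 and 0.117 with AZD7762. The ratio of INSM1 to NEUROD1 also overlapped, and so did all 8 ratios with NKX2-2 and that of NKX6-1 to PDX1. Summed over the 9 genes, the CPM were 4213, 3940 and 4193 with DMSO and 3650, 3873 and 3772 with AZD7762. NEUROD1 made up 33.7% ± 1.13 of the sum with DMSO and 31.3% ± 0.544 with AZD7762 (SD, n = 3 each). A ratio shows unequal change and does not say which gene moved, and these ratios are given without a test. They were not corrected for trends with GC content and length in each library. GC content of the longest annotated transcript is 40.5% for NEUROD1 and 44.2% for RFX6, against 59.0% for PDX1 and 59.1% for NKX6-1. With those trends taken out, the log2 fold changes were -0.19, -0.21, 0.021 and 0.093 in that order. INSM1 is at 63.2%, and its ratios to PDX1 also did not overlap. They were 3.19, 2.63 and 3.06 with DMSO and 2.29, 2.44 and 2.43 with AZD7762. The log2 fold change of INSM1 was -0.30 with the trends taken out. The part of the trends in the ratios was not tested.

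**Figure D3:**
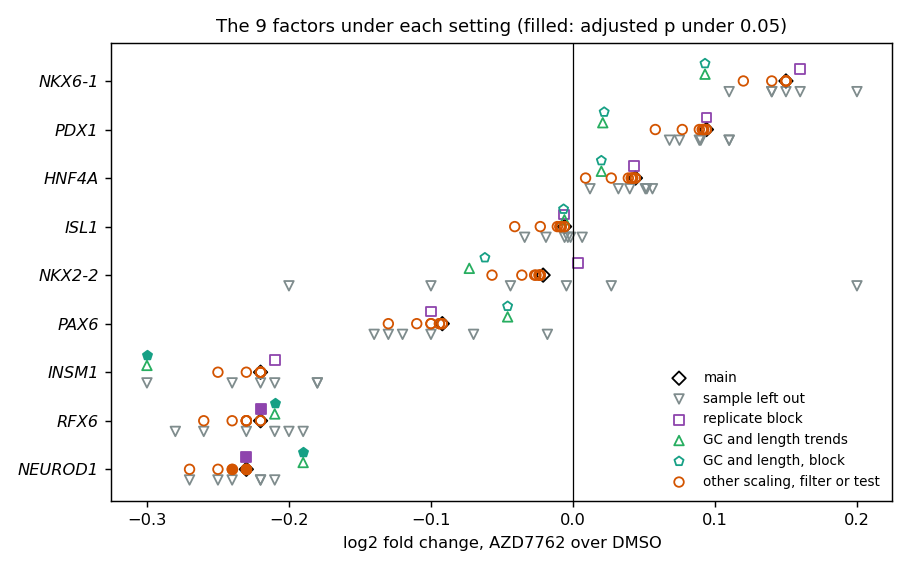
log2 fold change (AZD7762 over DMSO) of each of the 9 factors in the reported fit and in every alternative, with filled symbols where the adjusted p was under 0.05. NEUROD1, RFX6 and INSM1 stay below 0 and NKX6-1, PDX1 and HNF4A above 0 in all settings shown, while ISL1 and NKX2-2 change sign in some.

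By transcript level the 9 factors spanned a wide range. On the scale of normalized CPM per kilobase of annotated exon, averaged over the 6 samples, INSM1 was the highest at 339 ± 35.3 (SD), and 99.8% of the genes tested had a lower level. NEUROD1 followed at 156 ± 14.5, ISL1 at 141 ± 3.1 and PDX1 at 139 ± 5.61. The samples of NEUROD1 and ISL1 overlapped, and so did those of ISL1 and PDX1, over all 6 samples. Within DMSO these 3 were apart, with NEUROD1 at 166 to 174, ISL1 at 139 to 143 and PDX1 at 132 to 137. With AZD7762 they overlapped by exon length, at 139 to 150, 137 to 145 and 141 to 147. NKX6-1 was at 54.8 ± 3.8, apart from its neighbours on either side. RFX6 at 35.8 ± 3.56 and NKX2-2 at 35.7 ± 6.55 did not differ beyond their spread. PAX6 at 18.6 ± 1.36 and HNF4A at 11 ± 0.351 were the lowest and apart from each other, although 74.7% of the genes tested had a lower level than HNF4A. PAX6 and HNF4A have 81 and 17 annotated transcripts, whose exons together are much longer than any single transcript. Divided by the longest annotated transcript instead, NEUROD1 was the highest at 356 ± 33.1, with samples that overlapped those of INSM1 (317 to 396 against 308 to 385). PAX6 then moved to the sixth place at 55.3 ± 4.05. By that length NEUROD1, ISL1 (161 to 171) and PDX1 (132 to 147) were apart over all 6 samples. Their overlap above therefore depended on the length used.

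**Figure D4:**
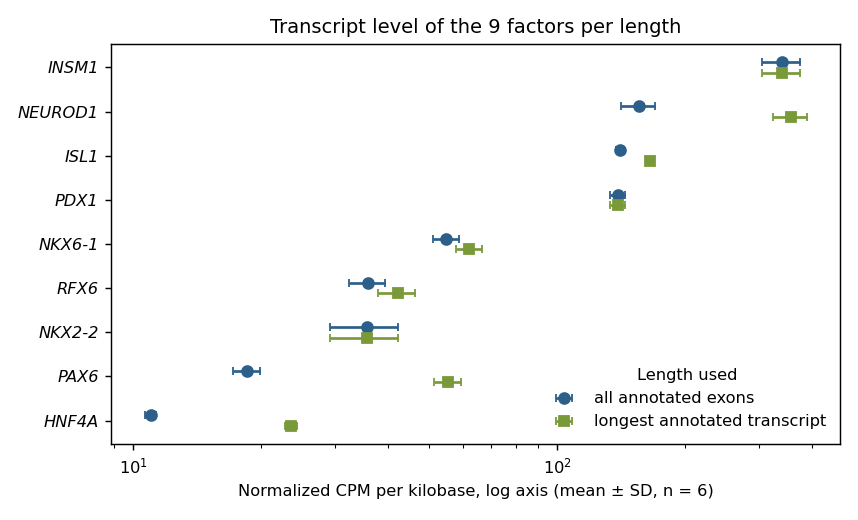
Mean ± SD over all 6 samples of normalized CPM per kilobase on a log axis, with the length taken as all annotated exons (circles) or as the longest annotated transcript (squares). INSM1 is the highest by exon length, NEUROD1 moves from 156 to 356 and PAX6 from 18.6 to 55.3 with the length used, and HNF4A is the lowest by both.

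NEUROD1 was compared with 13903 other genes that had a mean log2 CPM of 1 or more and a count in every sample. Among them the patterns over the 6 samples most like that of NEUROD1 were those of ACVR1C, ADGRD1-AS1, TSC22D1, PLIN2 and USP27X. Likeness was the root mean square difference of centred log2 CPM, and it was 0.0196 for ACVR1C, a type I receptor of the activin family (ALK7). ACVR1C was at 1449, 1396 and 1406 CPM with DMSO and at 1137, 1283 and 1194 CPM with AZD7762, and like NEUROD1 it did not pass the test (log2 fold change -0.23, edgeR adjusted p = 0.211). PLIN2, which coats lipid droplets, was at 90.5, 85.8 and 85.5 CPM with DMSO and at 74, 76.4 and 72 CPM with AZD7762, with a log2 fold change of -0.24. TSC22D1, a leucine zipper protein, and USP27X, a deubiquitinase, were both at -0.20 on the log2 scale, and the antisense gene ADGRD1-AS1 at -0.24. Of the 9 factors, RFX6 was the closest to NEUROD1, at rank 143 with a difference of 0.0564, and INSM1 was at rank 469 with 0.0754. NKX2-2 was the farthest of them, at rank 12513. The ranks describe these 6 libraries and have no test.

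NEUROD1 binds E-boxes as a dimer with the E proteins TCF3, TCF4 and TCF12, and the ID proteins, which lack a DNA-binding region, sequester those E proteins. Of these 7 partner genes, 2 were called, both lower, beside 0.351% of all genes called lower, and their median log2 fold change was -0.24 beside 0.0076 over all genes tested. ID2 was at 314, 304 and 295 CPM with DMSO and at 221, 221 and 218 CPM with AZD7762, a fall of 0.47 on the log2 scale (SE 0.0551, edgeR adjusted p = 0.000743). ID1 was at 11, 11.3 and 13.7 CPM with DMSO and at 6.24, 3.33 and 6.05 CPM with AZD7762, with a log2 fold change of -1.19 (SE 0.182, edgeR adjusted p = 0.00589). ID4 averaged 262 ± 7.23 CPM in the vehicle samples and 222 ± 6.49 in the treated samples. Its log2 fold change was -0.24, with an adjusted p of 0.0966 that became 0.0107 with the replicate block. ID3 had a log2 fold change of -0.32 (edgeR adjusted p = 0.357). In all 4 ID genes the treated samples were below the vehicle samples, as in 8.25% of all genes. The E proteins overlapped between the groups, with log2 fold changes of 0.12 for TCF3, -0.054 for TCF4 and 0.017 for TCF12.

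Of 30 cofactors known to work with islet factors, 28 were tested and 1 was called, beside 0.708% of all genes. NR0B2 (SHP), a nuclear receptor without a DNA-binding domain that represses HNF4A, was at 7.89, 7.39 and 8.63 CPM with DMSO and at 5.69, 4.23 and 4.41 CPM with AZD7762. It fell by 0.73 on the log2 scale (SE 0.134, edgeR adjusted p = 0.0237), while HNF4A itself overlapped between the groups. Without DMSO replicate 1 or without AZD7762 replicate 2 or 3, it was no longer called. LDB1, the LIM-domain binding partner of ISL1, averaged 123 ± 2.66 CPM with DMSO and 138 ± 4.6 with AZD7762 and did not pass (log2 fold change 0.17, edgeR adjusted p = 0.327). SETD7, a methyltransferase that works with PDX1, did not pass either (log2 fold change -0.15, adjusted p = 0.431). The median of the 28 was 0.044.

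The wider islet network was read from a list of 43 other islet factors, of which 35 passed the filter. Of these, 3 were called, beside 0.708% of all genes, 2 of them higher and 1 lower, and the median log2 fold change was -0.024. MAFA, the activator of the insulin gene that marks mature β cells, rose from 17.3 ± 3.41 to 40.4 ± 4.25 CPM (log2 fold change 1.24, SE 0.122, edgeR adjusted p = 0.000133). FOXA2, a pioneer factor of the endoderm, rose from 398 ± 16.1 to 529 ± 6.46 CPM (log2 fold change 0.41, SE 0.0579, adjusted p = 0.00317). SOX4, which acts in endocrine differentiation, fell from 125 ± 7.4 to 67.1 ± 2.9 CPM (log2 fold change -0.90, SE 0.0647, adjusted p = 7.79e-06). INSM2, the paralog of INSM1, was at 6.64 ± 1.26 and 4.56 ± 0.472 CPM (log2 fold change -0.53, adjusted p = 0.215).

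In level per exon length, FOXA2 was at 171 ± 26.7 CPM per kilobase (SD over 6 samples). Its samples, at 140 to 196, overlapped those of NEUROD1 (139 to 174) and lay below those of INSM1 (308 to 385). SOX11 at 26.5 ± 1.78, GATA4 at 21.8 ± 0.757 and IRX2 at 21.1 ± 1.81 were lower, between NKX2-2 and PAX6 in order. SOX11 had a log2 fold change of -0.17 (edgeR adjusted p = 0.324), while GATA4 and IRX2 were at -0.023 and -0.0069. NEUROG3, the factor that starts endocrine differentiation, did not pass the filter, with a mean of 0.0508 CPM with DMSO and 0.0156 with AZD7762, both under the level of 3 counts (0.102 to 0.144 CPM).

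Genes for β cell products and functions that these factors regulate showed little difference between the groups. Of 32 such effector genes, 1 was called, beside 0.708% of all genes, and the median log2 fold change was 0.052. SYT4, a synaptotagmin that sets the calcium sensitivity of insulin granule release in maturing β cells, was at 150, 144 and 143 CPM with DMSO and at 262, 304 and 276 CPM with AZD7762. It rose 1.93-fold (log2 fold change 0.95, SE 0.0656, edgeR adjusted p = 5.5e-06). INS, the insulin gene, was the highest of the list per exon length, at 2035 ± 434 CPM per kilobase, followed by CHGA at 1239 ± 74.4, CPE at 727 ± 43.6, CHGB at 183 ± 13 and SCGN at 174 ± 9.17. INS was at 1102, 1016 and 1663 CPM with DMSO and at 1483, 1132 and 1616 CPM with AZD7762. These overlapped, and the log2 fold change of 0.16 (SE 0.165) had an adjusted p of 0.805. CHGB, a granin of the secretory granule, was higher in all treated samples, at 768 ± 36.5 and 859 ± 27.3 CPM (log2 fold change 0.16, edgeR adjusted p = 0.422). GAD2, which makes GABA in β cells, was lower in all treated samples, at 48.7 ± 2.59 and 41.8 ± 1.05 CPM (log2 fold change -0.22, adjusted p = 0.239).

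Markers of the labelled cell type and of others were read. All 9 β cell markers fixed for this purpose, among them INS, IAPP, PCSK1, PCSK2, SLC30A8, ABCC8, KCNJ11 and G6PC2, were above 1 CPM in every sample. Markers of other cell types, such as SST, CD74 and CPA1, were above it too, so this level does not tell the cell types apart. Some other values moved with the groups, and their part in the results above was not tested. Mitochondrial genes took 1.57% to 2.13% of counts with DMSO and 2.26% to 2.63% with AZD7762. The 3 δ cell markers summed to 233 to 262 CPM with DMSO and 271 to 296 CPM with AZD7762, mostly SST, whose log2 fold change was 0.24 (edgeR adjusted p = 0.16, or 0.00989 with the replicate block). The other markers of that list, HHEX and LEPR, had log2 fold changes of -0.19 and -0.076 and overlapped between the groups. The 4 immune markers summed to 46.6 to 48.8 and 54.7 to 56.3 CPM, with CD74 making up most of it and CD68 and PTPRC under 0.3 CPM. Of 6 acinar markers, PRSS1, CELA3A, CTRB1, PNLIP and REG1A were at 0 in every sample, and CPA1 gave sums of 21 to 22.6 and 24.7 to 27.5 CPM. The summed levels of the 5 α cell, 3 ductal and 5 mesenchymal markers overlapped between the groups, at 79.8 to 93.6, 24.5 to 30 and 15 to 20.4 CPM with DMSO. COL1A2, a collagen of the mesenchymal list, was at 2.92 CPM with DMSO and 4.36 with AZD7762 (log2 fold change 0.58, edgeR adjusted p = 0.125). It was called with the GC and length trends (adjusted p = 0.0425) and with those trends and the replicate block (0.0411). Endothelial markers, with 2 of 3 matched, and the PP and ε cell hormones PPY and GHRL stayed under 0.4 CPM. None of the genes tested in these lists was called in the reported fit. In bulk RNA, fewer cells that express a gene and less of its RNA per cell cannot be told apart.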

How the data were processed

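Polyadenylated RNA of EndoC-βH1 cells was sequenced in 6 samples, grouped by treatment from their titles. The authors trimmed the reads with cutadapt 1.18, checked them with FastQC 0.10.1 (both per the labels), mapped them to GRCh37 and obtained gene counts with HTSeq. They deposited raw counts, 1 file per sample. Libraries were made with a stranded or an unstranded kit, and the labels do not say which was used for which sample. Libraries held 20486391 to 29402440 counts.

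Counts were scaled by TMM (factors 0.983 to 1.02), filtered with filterByExpr and tested in edgeR 4.0.16 (R 4.3.3, limma 3.58.1) by the two-sided quasi-likelihood test, with treatment as the single term and Benjamini-Hochberg adjustment over 17649 genes and a threshold of 0.05. Normalized CPM use the scaled totals. Standard errors were derived from the fold change and the F statistic, and 95% intervals are per gene. GC content was that of the longest annotated transcript of each gene, and the trends used the length of all annotated exons. Symbols, positions, lengths and GC content came from GENCODE 44 on GRCh37, a release other than that of the files. It matched 58646 identifiers, and the 2025 others held 0.153% of counts. Alternatives were other scaling, filters and tests (DESeq2 1.42.0 among them), GC content and length trends (loess, span 0.3), the replicate number as a block, and leaving out each sample. The deviations of same-numbered samples from their group means correlated at 0.134, 0.256 and 0.376, each over 0.1, so the numbers were taken to pair the samples, although the labels name no shared batch and DMSO replicate 1 correlated more with AZD7762 replicate 2 (0.334).

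The 9 genes, the gene lists and the tests were chosen with earlier results of these data known. Genes named are the 9 factors, the called genes and the 3 with the smallest p of the factor, cofactor, partner and effector lists (marker lists are given mainly by their sums), the 5 highest other factors and effector genes per exon length, the 5 genes most like NEUROD1, and genes with overlapping exons. NEUROG3 and others named outside that rule were chosen after their values were seen. Some genes that the rule takes are not reported here. Promoters were searched on both strands. On simulated counts with 17424 genes after the filter and 200 changed, the quasi-likelihood test called 75% of changes of 0.5 and 90% of changes of 1 on the log2 scale, with 13 unchanged genes called. Every simulated gene had the same biological coefficient of variation, and no effects of replicate, GC content or length were simulated. The rates may therefore not hold for the data. Changes as small as those of the 9 factors were not simulated.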

Additional observations from a re-analysis of the deposited data

How the results depend on the processing

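The directions of NEUROD1, RFX6, INSM1, PAX6, NKX6-1, PDX1 and HNF4A were the same in all 17 alternatives. When a sample was left out, ISL1 ranged from -0.034 to 0.0065 and was above 0 without AZD7762 replicate 1. NKX2-2 ranged from -0.20 to 0.20, with 0.027 without that sample and 0.20 where DMSO replicate 3 was dropped. Beside the 125 genes called, there were 330 with no filter, 267 by the likelihood ratio test of edgeR, 254 by the exact test, 244 with GC content and length trends, and 77 to 168 when a sample was left out (77 without AZD7762 replicate 1). Of the 9 factors, 0 were called in the reported fit and in any of the 6 fits that left out a sample, and 1 (NEUROD1) with no filter, DESeq2, the likelihood ratio test or the exact test, where its adjusted p was 0.0337, 0.03, 0.0342 and 0.0358 and its log2 fold change -0.24 to -0.23. Among the other islet factors, 5 were called with no filter or with the GC and length trends, INSM2 among them. The median level of the 9 factors was 54.8 CPM per kilobase by exon length and 62.1 by the longest transcript. The cause of these shifts was not tested.

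With the replicate block, 378 genes were called, and 486 when the GC and length trends were added. All 125 genes of the reported fit were among each of these. Of the 9 factors, 2 were called under the block (NEUROD1 and RFX6) and 3 with the trends as well (INSM1 at -0.30 in addition). The block turned NKX2-2 to 0.0035. With block and trends, 7 other islet factors were called (MYT1 and SOX11 in addition), 5 cofactor and partner genes instead of 3 (ID3 and ID4 in addition) and 2 effector genes instead of 1 (CHGB in addition). The block alone also called ID4 and SST, and it changed no other call among the genes named from the lists. With 3 samples per group, intervals of about 0.1 to 0.3 on the log2 scale around each factor limit what could be detected.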

Other observations

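Genes that adult β cells keep low, such as those for lactate dehydrogenase and the monocarboxylate transporter, were also measured. LDHA was at 262 ± 26.2 CPM in vehicle and 287 ± 24.9 in treated samples (SD, n = 3 each), with a log2 fold change of 0.13 and an edgeR adjusted p of 0.659. SLC16A1 was at 53.3 ± 2.56 and 55.6 ± 3.65 CPM, and HK1 at 2.84 ± 0.74 and 3.57 ± 0.52 CPM. REST, a repressor of neuronal and endocrine genes, was at 3.8 ± 1.31 and 3.74 ± 0.36 CPM. None of the 4 genes of this list that were tested was called in the reported fit, and all 4 overlapped between the groups. With the GC and length trends and the replicate block together, LDHA had an adjusted p of 0.0257. PDGFRA, the remaining gene of the list, was too low to test.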
